A study of Homo sapiens with 3 samples.

Results

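The metallothioneins MT2A, MT1E, MT1F, MT1G, MT1M and MT1X, the metal-sensing transcription factor MTF1 and the zinc exporter SLC30A1 were examined in A549 cells depleted of DDX24. The 8 genes were taken by their names from the 58735 genes of the count files, with earlier results of these data known, and the 5 MT1 genes were also added up, because they are close copies of each other. RNA-sequencing was done on 3 libraries of A549, a human lung adenocarcinoma line, with 1 library each for a control (Control-sh) and for lines carrying 1 of 2 short hairpin RNAs against the RNA helicase DDX24 (DDX24-sh1 and DDX24-sh2). All 3 lines carried a lentiviral pLKO.1 vector, were selected with puromycin and grown in F12K medium with 10% FBS. By the methods, the stable lines were kept in puromycin at a lower dose after selection. No metal treatment and no other drug treatment of these libraries is given. The methods name an empty vector as the control, whereas a figure legend names a control shRNA. With 1 library per condition, depletion of DDX24 and whatever else set these cultures apart cannot be told apart, and no test between conditions could be made. Values for the 3 libraries are given in the order Control-sh, DDX24-sh1, DDX24-sh2, and pairs of values in the order DDX24-sh1, DDX24-sh2.

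Metallothioneins are small, cysteine-rich proteins that bind zinc, copper and cadmium ions and buffer the free zinc of the cytosol. Free zinc binds the zinc fingers of MTF1, which then occupies metal response elements in the promoters of the metallothionein genes and of SLC30A1, whose product ZnT1 carries zinc out of the cell across the plasma membrane. MT2A is often the most abundant of them, and metallothionein genes are also induced by glucocorticoids and by oxidative stress.

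DDX24, the targeted gene, had 2010, 637 and 765 counts, or 29.6% and 36.0% of the control level in the knockdown libraries. DDX24 overlaps OTUB2 on the other strand over 640 bp, and OTUB2 had 144, 219 and 260 counts. The libraries held 17218884 to 18337471 counts, and mitochondrial genes took 4.36%, 5.13% and 7.04% of them; the part of this share in the results was not tested. All 5 epithelial markers examined were above 1 CPM on average, with a summed level of 7673 to 7770 CPM (counts scaled to a common library total). Most of this sum came from KRT8, KRT7 and KRT18, whereas EPCAM averaged 1.69 CPM, and KRT19 had 1001, 2251 and 2728 counts. The 4 endothelial markers were each below 1 CPM on average, with a summed level of 0.609 to 1.05 CPM. The 5 leukocyte markers summed to 4.43 to 8.14 CPM, with 3 of them at 0 and CD14 averaging 6.07 CPM. The 5 fibroblast markers summed to 9.90 to 15.4 CPM, with COL1A1 averaging 8.53 CPM and LUM 3.24 CPM. The deposited FPKM values carry the names of both shRNA libraries the other way round: FPKM labelled DDX24-sh1 matched the counts labelled DDX24-sh2 within 1% for 100% of 12136 genes. The names used here are those of the counts, so which hairpin gave which library is uncertain, and exchanging the names would exchange the paired values below.

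Metallothionein promoters are known for repeated metal response elements, and the windows that bear on the results are shown first, because the core of this element was spread unevenly over the members. The sequences are RefSeq windows of 300 bases on GRCh38.p14, from 250 bases before the start annotated by RefSeq to 50 bases from it on, and 4 of the 8 members had one. Positions are counted from the RefSeq start, which is not the GENCODE gene start given with each gene's values: for MT2A it lies 385 bases and for MT1X 46 bases inside the GENCODE gene, and for SLC30A1 it lies 419 bases before it. The capitals mark each match to TGCACNC or TGCGCNC on either strand, and no match overlapped another in the windows shown. MT1H, which is no member, is shown because its window held as many matches as that of MT2A while its gene had 0 counts in all 3 libraries. The windows are MT2A at chr16:56608334-56608633 (plus strand), MT1X at chr16:56682220-56682519 (plus strand), MT1H at chr16:56669564-56669863 (plus strand) and SLC30A1 at chr1:211579112-211579411 (minus strand, printed as transcribed).
MT2A: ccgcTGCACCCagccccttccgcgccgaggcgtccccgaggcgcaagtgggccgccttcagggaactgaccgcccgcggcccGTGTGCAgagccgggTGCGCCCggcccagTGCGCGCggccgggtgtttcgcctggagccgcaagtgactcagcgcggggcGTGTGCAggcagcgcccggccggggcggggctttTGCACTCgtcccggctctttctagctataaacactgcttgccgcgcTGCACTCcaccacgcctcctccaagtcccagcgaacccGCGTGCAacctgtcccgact
MT1X: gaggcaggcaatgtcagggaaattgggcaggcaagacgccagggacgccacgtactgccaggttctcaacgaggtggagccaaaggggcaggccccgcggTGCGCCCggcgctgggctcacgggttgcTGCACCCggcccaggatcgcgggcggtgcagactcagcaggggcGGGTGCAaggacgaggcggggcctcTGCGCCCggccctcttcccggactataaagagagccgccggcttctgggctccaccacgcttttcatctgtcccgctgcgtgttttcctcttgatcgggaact
MT1H: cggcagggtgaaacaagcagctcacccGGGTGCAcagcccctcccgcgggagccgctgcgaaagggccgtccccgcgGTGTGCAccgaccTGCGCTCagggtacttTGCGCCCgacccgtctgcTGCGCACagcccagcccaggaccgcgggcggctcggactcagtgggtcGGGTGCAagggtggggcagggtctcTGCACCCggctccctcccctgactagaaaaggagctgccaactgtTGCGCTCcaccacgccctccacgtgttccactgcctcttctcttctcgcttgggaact
SLC30A1: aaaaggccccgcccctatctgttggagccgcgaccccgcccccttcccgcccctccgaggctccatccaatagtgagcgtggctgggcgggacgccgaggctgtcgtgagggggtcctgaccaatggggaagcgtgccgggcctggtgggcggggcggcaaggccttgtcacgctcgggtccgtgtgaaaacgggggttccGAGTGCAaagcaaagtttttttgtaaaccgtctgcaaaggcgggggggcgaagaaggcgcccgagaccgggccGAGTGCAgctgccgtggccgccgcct
The MT2A window held 8 matches, 5 on its own strand and 3 on the other, beginning at positions -246, -168, -153, -139, -88, -54, -8 and 30 from the start. MT1X had 4 matches, at -150, -122, -78 and -53, SLC30A1 had 2, at -49 and 24 and both on the opposite strand, and the MTF1 window had 0. At least 1 match was present in 29.6% of all 35116 windows. With overlapping matches counted as 1, at least 2 were present in 7.51% and at least 4 in 0.339%. Counted in the same way, 8 or more occurred in 6 windows, 2 of them of metallothionein genes. The sequence TATAAA was found in the windows of MT2A and MT1X and in 7.33% of all windows, and not in those of SLC30A1 and MT1H. These are descriptions of letters in a window. No binding of MTF1 was measured in these cells.

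The coding sequences of MT2A and of the 2 counted MT1 members, from GENCODE 29, are shown because their likeness limits how reads can be assigned between them. The capitals mark bases that differ from MT2A.
MT2A: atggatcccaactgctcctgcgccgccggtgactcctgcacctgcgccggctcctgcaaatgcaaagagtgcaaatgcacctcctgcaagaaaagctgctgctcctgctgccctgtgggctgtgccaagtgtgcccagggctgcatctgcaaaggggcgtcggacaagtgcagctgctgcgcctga
MT1X: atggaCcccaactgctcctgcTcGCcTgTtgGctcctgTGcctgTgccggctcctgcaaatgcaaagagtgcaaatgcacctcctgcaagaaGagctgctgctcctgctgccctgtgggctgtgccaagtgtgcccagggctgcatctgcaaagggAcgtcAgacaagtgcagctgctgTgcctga
MT1F: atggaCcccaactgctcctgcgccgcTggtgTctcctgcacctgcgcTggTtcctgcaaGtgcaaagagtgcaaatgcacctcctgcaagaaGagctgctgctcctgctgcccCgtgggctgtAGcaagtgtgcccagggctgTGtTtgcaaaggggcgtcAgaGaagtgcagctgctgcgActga
Each of these 186-base sequences holds 61 codons before the stop, of which 20 (32.8%) encode cysteine, the residue that binds the metal. MT1X differed from MT2A at 14 bases and MT1F at 16. Over the coding sequence, identity with MT2A was 92.5% for MT1X and MT1E, 91.4% for MT1F, 93.7% for MT1G and 89.8% for MT1M. Most stretches of 50 bases, pooled over all annotated transcripts of a gene, nonetheless occurred in no other gene. Their share was 97.0% for MT2A, 98.8% for MT1F, 92.9% for MT1E, 90.1% for MT1M, 83.5% for MT1G and 81.7% for MT1X. For 100-base stretches this share was 100% for each of these genes but MT1X, with 88.7%. The pooled exons of MT2A (1299 bp) and MT1X (1773 bp) cover the whole gene, introns of other transcripts included. These shares are therefore not those of the spliced mRNA, which were not computed. MT1X lies under the gene model AC026461.1 on the same strand over 1727 bp, and AC026461.1 had 0 counts in every library. That overlap is between whole gene spans, introns included, whereas 88.7% of the 100-base stretches of MT1X transcripts occurred in no transcript of another gene. How many reads, if any, were dropped from both genes cannot be checked, because the counting program is not given.

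MT2A carried most metallothionein counts and was higher in both knockdown libraries, at 135% and 121% of control. The zinc exporter SLC30A1 was lower in both, at 80.9% and 72.4% of control, while the sensor MTF1 differed from control by less than its counting error. Among the MT1 genes, MT1X lay within counting error of control, MT1F was lower from low counts, and MT1E, MT1G and MT1M had no count in any library. The ratios of MT2A and SLC30A1 thus lay on opposite sides of the control in both libraries. Both are known targets of MTF1, whose activity was not measured, and a part of MTF1 in this difference was not tested. In bulk RNA such a difference cannot be told apart from a change in the share of cells that express a gene.

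MT2A (ENSG00000125148, chr16:56608199-56609497, plus strand) is the most widely expressed human metallothionein. It had 2425, 3498 and 3109 counts, which is 142, 191 and 172 CPM after TMM scaling, a normalisation that sets the libraries on 1 scale through the bulk of their genes. Both shRNA libraries were therefore above the control library, and DDX24-sh1 was the higher of them. The log2 ratios to control were 0.43 (95% counting interval 0.35 to 0.50) and 0.28 (0.20 to 0.35). These intervals come from the 2 counts alone, by the exact conditional binomial (Clopper-Pearson) method, and hold no variation between cultures. DDX24-sh2 was lower than DDX24-sh1 by a log2 difference of -0.15 (-0.22 to -0.08), an interval that does not reach 0. Per kilobase of its annotated exons, MT2A stood at 109, 147 and 133 CPM, above 97.8% to 98.6% of the 13984 genes that averaged 1 CPM or more. The length used, 1299 bp, covers the whole gene with its introns, so this level and rank are not those of the spliced mRNA.

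SLC30A1 (ENSG00000170385, chr1:211571568-211578742, minus strand) encodes ZnT1, the zinc exporter of the plasma membrane. It had 2434, 2111 and 1863 counts, or 143, 115 and 103 CPM. Both knockdown libraries were below control, and here DDX24-sh2 was the lower one. The log2 ratios were -0.30 (-0.39 to -0.22) and -0.47 (-0.55 to -0.38), and the libraries of the hairpins differed by -0.16 (-0.25 to -0.07). Its level per kilobase of annotated exons, 26.1, 21.1 and 18.9 CPM, was well below that of MT2A in each library.

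The ratio of MT2A to SLC30A1 counts within each library gives the contrast between these genes with no scaling between libraries. Their counts were nearly equal in Control-sh. MT2A counts per SLC30A1 count were 0.996 (0.941 to 1.05), 1.66 (1.57 to 1.75) and 1.67 (1.58 to 1.77). The within-library ratio was thus 1.66-fold (1.54 to 1.80) and 1.67-fold (1.54 to 1.82) that of control. Between the hairpin libraries it differed by 1.01-fold (0.930 to 1.09), an interval that holds 1 although each gene alone was lower in DDX24-sh2 than in DDX24-sh1. This contrast was not planned: the genes were paired with their values known, and it restates their ratios given above. Both folds share the control library and are not independent, and how many other pairs of genes reach such a contrast was not computed.

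**Figure D1:**
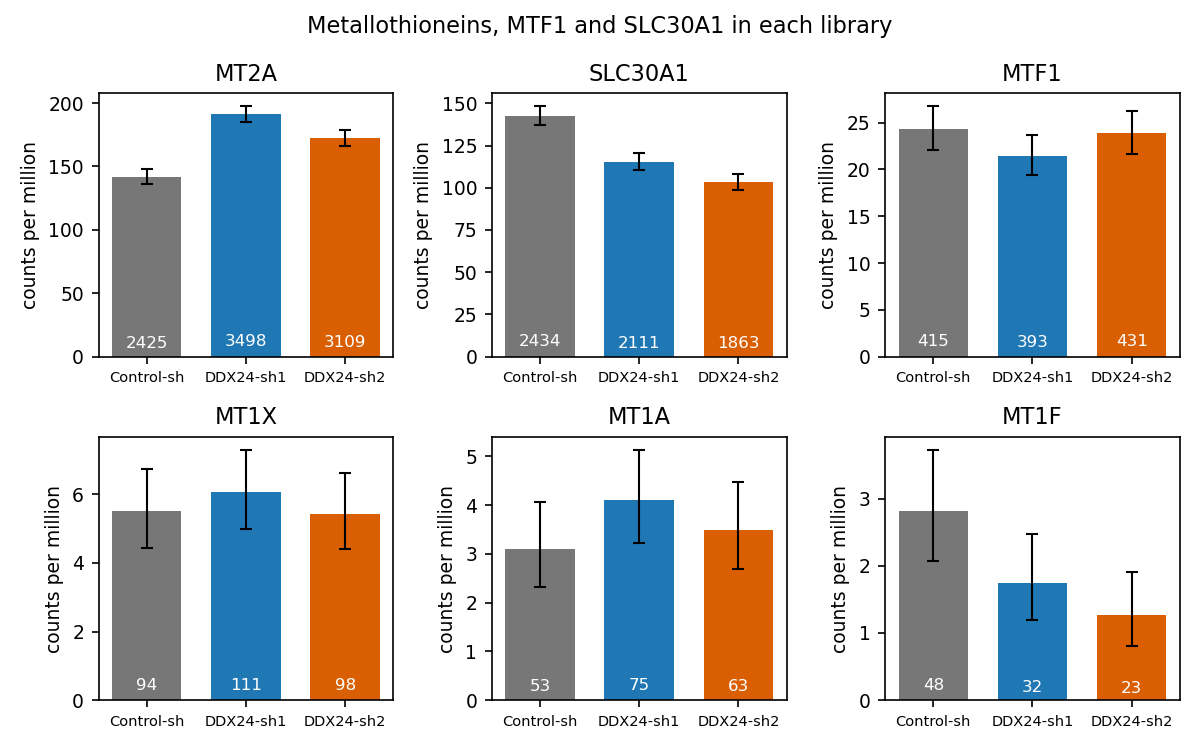
Level in CPM in each of the 3 libraries for MT2A, SLC30A1, MTF1, MT1X, MT1A and MT1F, with the number of counts written in each bar and whiskers for the exact 95% counting interval of 1 library. MT2A is higher and SLC30A1 lower in both shRNA libraries, and the whiskers of MTF1, MT1X and MT1A overlap between libraries.

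MTF1 (ENSG00000188786, chr1:37809567-37859620, minus strand), the zinc-finger factor that senses the ion, had 415, 393 and 431 counts, or 24.3, 21.5 and 23.9 CPM. The values of the control and DDX24-sh2 nearly coincided, and DDX24-sh1 was the lowest. Its log2 ratios were -0.18 (-0.38 to 0.02) and -0.03 (-0.22 to 0.17; 0.0029 when scaled by total counts), so a difference from control was not detectable at this depth. MTF1 overlaps the gene model AL929472.4 over 691 bp, which had 0 counts. RNA level says nothing of the zinc occupancy or nuclear entry through which MTF1 acts.

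MT1X (ENSG00000187193, chr16:56682424-56684196, plus strand), a metal-inducible isoform, had the most counts of the MT1 genes. It had 94, 111 and 98 counts, or 5.51, 6.07 and 5.43 CPM, with DDX24-sh1 the highest and the other two close together. These counts would be too low if reads under AC026461.1 were dropped. The log2 ratios were 0.14 (-0.27 to 0.55) and -0.020 (-0.44 to 0.40), the latter being 0.0082 when scaled by total counts. Both intervals held 0, and each also held the ratio of MT2A in the same library, so at this depth MT1X could be told apart neither from the control level nor from MT2A.

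MT1F (ENSG00000198417, chr16:56657694-56660698, plus strand), another metal-inducible isoform, went the other way from MT2A. It had 48, 32 and 23 counts, or 2.81, 1.75 and 1.27 CPM, with the control library highest. The log2 ratios were -0.65 (-1.38 to -0.0097) and -1.08 (-1.93 to -0.40). With DESeq2 size factors the first of these intervals was -1.36 to 0.0034 and held 0. These ratios rest on few reads, and the 2 knockdown libraries were not separable (-0.43, -1.30 to 0.36).

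MT1E (ENSG00000169715, chr16:56625475-56627112, plus strand), MT1G (ENSG00000125144, chr16:56666731-56668065, minus strand) and MT1M (ENSG00000205364, chr16:56632233-56633986, plus strand) had 0 counts in every library. A count of 0 allows up to 3 counts, or 0.176, 0.164 and 0.166 CPM, for counting error. This limit holds only if reads shared with other copies were not discarded, which cannot be checked here. No ratio was formed for these 3 genes.

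The summed MT1 members had 142, 143 and 121 counts, or 8.32, 7.82 and 6.70 CPM, all of them from MT1X and MT1F. The log2 ratios of the sum were -0.09 (-0.43 to 0.26) and -0.31 (-0.67 to 0.05), and both intervals held 0. The sum mixes MT1X, near control, with MT1F, below it. Its direction in DDX24-sh1 turned when all 17 annotated MT1 genes and pseudogenes were summed: with 207, 241 and 199 counts the log2 ratios were 0.12 (-0.15 to 0.39) and -0.14 (-0.43 to 0.15). Adding MT2A to the 5 members gave 2567, 3641 and 3230 counts and log2 ratios of 0.40 (0.33 to 0.48) and 0.25 (0.18 to 0.33), close to those of MT2A alone.

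**Figure D2:**
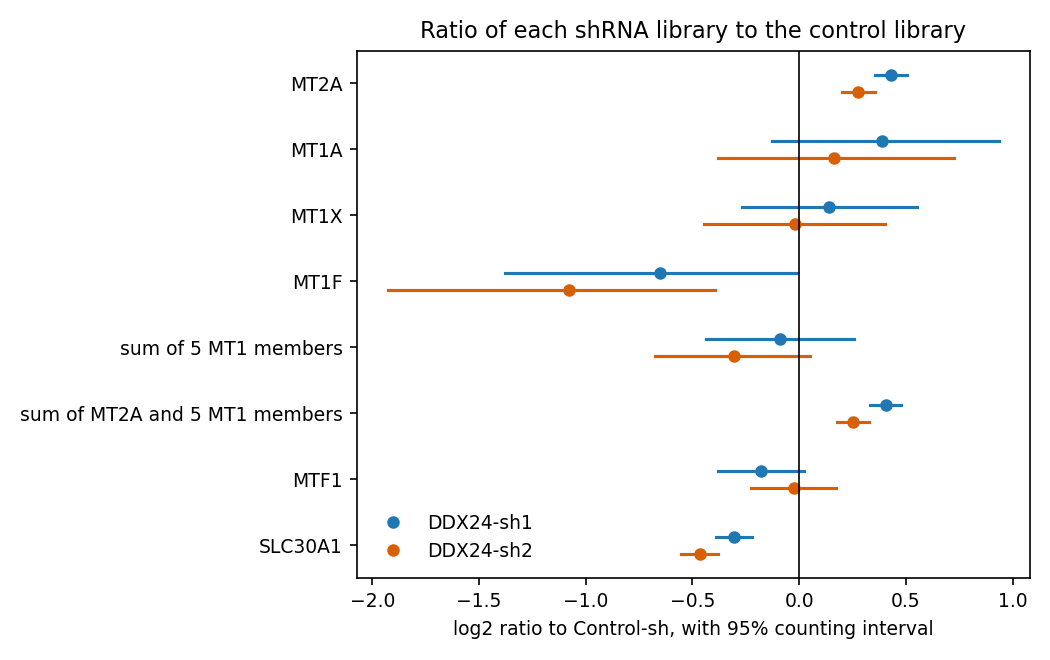
Log2 ratio of DDX24-sh1 (blue) and DDX24-sh2 (orange) to Control-sh for the counted members, MT1A and 2 sums, with lines for the exact 95% counting interval and a vertical line at 0. The intervals of MT2A lie above 0 and those of SLC30A1 below 0 in both libraries, whereas those of MT1X, MTF1 and the summed MT1 members hold 0.

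Of the 8 members, 5 averaged 1 CPM or more and 3 had no count. MT1F alone was at least 1.5-fold lower in both knockdown libraries, which 4.72% of the 13984 genes also were, and no member was at least 1.5-fold higher in both (4.23% of all genes). No member was past 2-fold in both, which held for 1.19% of all genes in the upward and 1.38% in the downward direction. The counting intervals of 1 member, MT2A, lay above 0 in both libraries (14.0% of all genes) and those of 2, SLC30A1 and MT1F, lay below 0 in both (20.6% of all genes). Ratios at least as high as those of MT2A in both libraries were found for 8.80% of genes and ratios at most those of SLC30A1 for 9.52%. Over all genes the median log2 ratios were -0.02 and -0.03, with interquartile ranges of -0.26 to 0.21 and -0.27 to 0.21, so MT2A and SLC30A1 both lay outside the middle of the distribution in both libraries without being rare in it. Both ratios of a gene share the control library and are not independent of each other.

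The annotated family has 21 genes and pseudogenes, of which 13 had 0 counts in all libraries and 7 had at least 10 counts summed over the libraries. MT2A took 92.1% of the family's counts in Control-sh and 93.5% and 93.7% in the knockdown libraries. On chromosome 16 the family spans 119 kb with 16 genes, and 11 of these had no count, so the genes with reads sat among neighbours without any. MT1A, a further protein-coding copy outside the members, had 53, 75 and 63 counts, or 3.11, 4.10 and 3.49 CPM, below MT1X in each library. Its log2 ratios were 0.39 (-0.13 to 0.94) and 0.16 (-0.38 to 0.72). Per kilobase of annotated exons the order of MT1A (7.84, 10.4 and 8.81 CPM) and MT1X (3.11, 3.42 and 3.06 CPM) was reversed, with MT1F at 1.49, 0.926 and 0.675 CPM. That reversal comes from the annotated lengths, 396 bp for MT1A, 1773 bp for MT1X and 1889 bp for MT1F, and is no ranking of expression. The pseudogenes MT1DP (9, 18 and 12 counts), MT1XP1 (2, 5 and 3 counts) and MT2P1 (0, 1 and 9 counts) were near the limit of detection. MT2P1 and MT1XP1 share 50-base stretches with MT2A and MT1X, so their few counts are uncertain in origin.

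**Figure D3:**
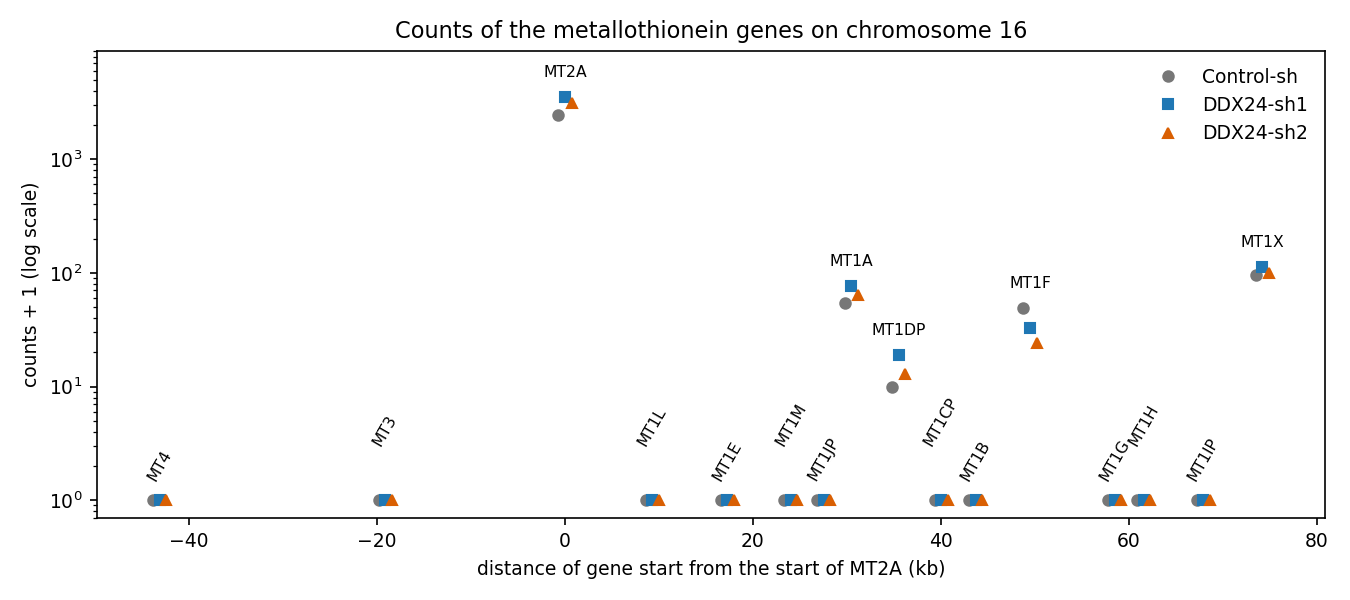
Counts plus 1 on a log scale for the 16 metallothionein genes of chromosome 16 in the 3 libraries, against the distance of each gene's start from that of MT2A in kb (the markers of 1 gene are set slightly apart sideways). MT2A stands at 2425 to 3498 counts, MT1X, MT1A, MT1F and MT1DP between 9 and 111, and the other 11 genes at 0.

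SLC30A1 was next set beside the other zinc transporters, because export and import together with metallothionein binding set the cytosolic zinc pool. Of 9 other SLC30 exporters, 6 reached 1 CPM, and 0 of these were past 1.5-fold in either direction in both libraries (4.23% of all genes were higher and 4.72% lower). Their median log2 ratios were 0.03 and -0.04. The 3 with the highest mean CPM, all transporters of intracellular membranes, were SLC30A6 (1292, 1486 and 1568 counts, log2 ratios 0.10 and 0.20), SLC30A5 (1146, 1065 and 1051 counts, -0.21 and -0.21) and SLC30A9 (827, 725 and 838 counts, -0.29 and -0.06). SLC30A1 had the lowest ratio in each library among the SLC30 genes averaging 1 CPM or more, although in DDX24-sh1 its interval overlapped that of SLC30A9 (-0.44 to -0.14).

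Of the 14 SLC39 importers, 11 reached 1 CPM, with medians of 0.05 and -0.16, and 1 of the 11 was past 1.5-fold lower in both libraries, beside 4.72% of all genes. That gene was SLC39A14, which encodes ZIP14, an importer of zinc, iron and manganese. It had 7710, 4322 and 3519 counts, with log2 ratios of -0.93 (-0.99 to -0.88) and -1.21 (-1.27 to -1.15). SLC39A8, whose product ZIP8 is the closest relative of ZIP14, had 1328, 1959 and 1513 counts. Its log2 ratios were 0.46 (0.36 to 0.56) and 0.11 (0.00015 to 0.21), and it is named after its values were seen. Of the 11 importers, 2 had counting intervals above 0 in both libraries (SLC39A8 and SLC39A10) and 2 below 0 (SLC39A14 and SLC39A9). The shares of all genes were 14.0% and 20.6%.

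Copper, which metallothioneins also bind, was examined through 12 copper-handling genes, of which 10 reached 1 CPM and 0 were past 1.5-fold in both libraries, beside 4.23% of all genes upward and 4.72% downward (medians 0.09 and 0.03). Those with the highest mean CPM were the superoxide dismutase SOD1 (2466, 3061 and 3302 counts, log2 ratios 0.21 and 0.34), the cytochrome oxidase assembly factor SCO1 (1790, 1840 and 1931 counts, -0.06 and 0.03) and the copper importer SLC31A1 (1259, 1629 and 1375 counts, 0.27 and 0.05). Among 12 iron-handling genes, all of which reached 1 CPM (medians 0.06 and -0.05), 1 was past 1.5-fold higher in both, beside 4.23% of all genes: SLC40A1, the iron exporter ferroportin and, like SLC30A1, a plasma membrane exporter, had 219, 463 and 371 counts and log2 ratios of 0.97 (0.75 to 1.22) and 0.68 (0.43 to 0.93).

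MT2A is also a known glucocorticoid target, and 11 genes for the glucocorticoid receptor and its targets were examined beside it. Of the 10 that reached 1 CPM, 5 were past 1.5-fold lower and 0 past 1.5-fold higher in both libraries, beside 4.72% and 4.23% of all genes (medians -0.53 and -0.58). The 5 lower genes were TSC22D3 (978, 389 and 249 counts, log2 ratios -1.43 and -2.05), DUSP1 (11509, 6102 and 6060 counts, -1.02 and -1.01), PER1 (437, 275 and 205 counts, -0.76 and -1.16), CEBPD (958, 678 and 447 counts, -0.60 and -1.18) and KLF9 (153, 99 and 89 counts, -0.72 and -0.85). The other counted targets, named after their values were seen, were mixed. ANGPTL4 was below control in both libraries (457, 371 and 392 counts, -0.40 and -0.30). GLUL, the glutamine synthetase, was above control in both like MT2A (891, 1396 and 1068 counts, 0.55 and 0.18). FKBP5 (240, 186 and 265 counts, -0.46 and 0.06) and the kinase SGK1 (694, 972 and 647 counts, 0.39 and -0.18) were on different sides of it. Of the 10 genes, 7 had counting intervals below 0 in both libraries and 1 above 0 in both, beside 20.6% and 14.0% of all genes. Some of the listed targets, DUSP1 and CEBPD among them, also respond to other stimuli. The receptor NR3C1 itself had 3299, 2923 and 2810 counts and log2 ratios of -0.27 and -0.31.

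Among 8 genes that cadmium or excess zinc induces together with metallothioneins, 2 were past 1.5-fold higher and 1 past 1.5-fold lower in both libraries, beside 4.23% and 4.72% of all genes (medians -0.17 and -0.12). The heat shock genes HSPA1A (375, 1564 and 1868 counts, log2 ratios 1.95 and 2.23) and HSPA1B (189, 654 and 858 counts, 1.68 and 2.09) were higher, and as near-identical copies they are uncertain as separate values. HMOX1, which encodes the heme-degrading enzyme heme oxygenase, was lower, at 11083, 7098 and 4833 counts (log2 ratios -0.74 and -1.28). The other genes of the list are named after their values were seen. The heat shock cochaperone gene DNAJB1 had 2506, 3597 and 3471 counts and log2 ratios of 0.42 (0.35 to 0.50) and 0.39 (0.31 to 0.46), near those of MT2A. TXNRD1 (-0.31 and -0.38), GCLM (-0.27 and -0.23), SRXN1 (-0.13 and -0.45) and GCLC (-0.22 and -0.02) lay below control in both libraries. Of the 8 genes, 3 had counting intervals above 0 in both libraries and 3 below 0 in both, beside 14.0% and 20.6% of all genes.

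**Figure D4:**
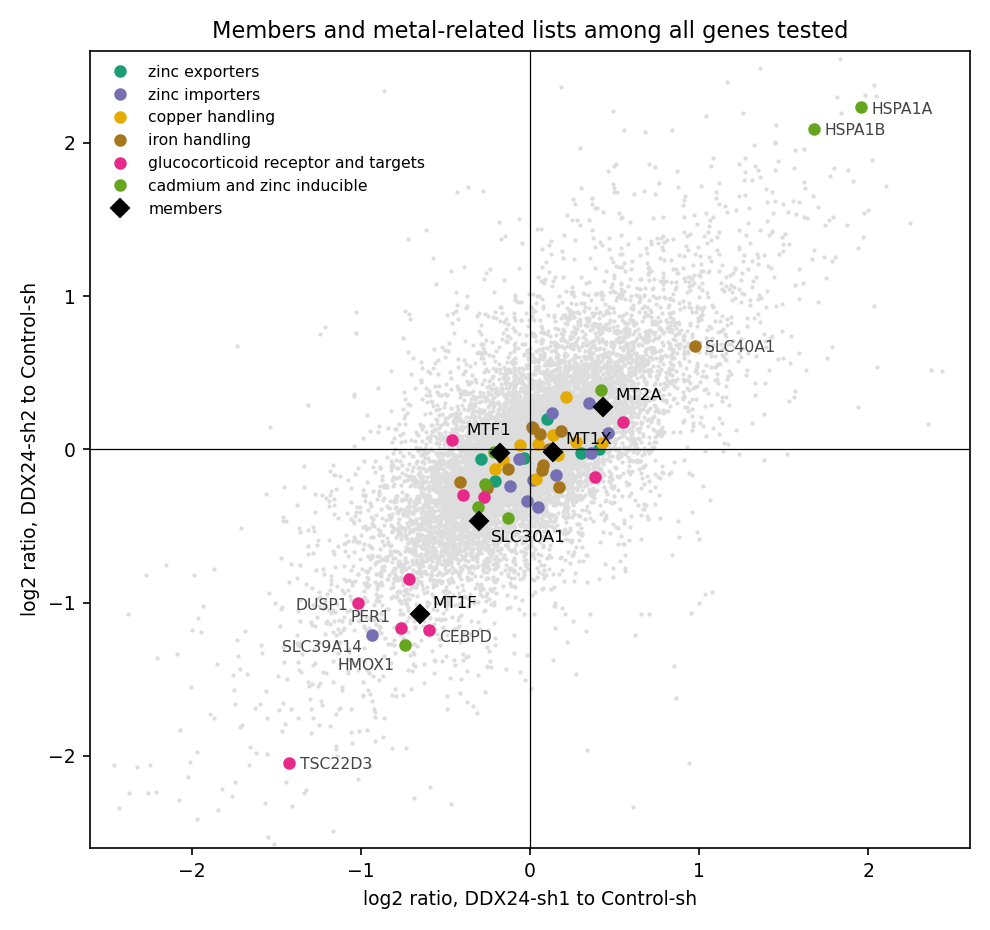
Log2 ratio to Control-sh in DDX24-sh1 (horizontal) and DDX24-sh2 (vertical) for the genes averaging 1 CPM or more (grey), the 6 gene lists (colours) and the 5 counted members (black diamonds), with 35 genes outside the axes. Both axes share the control library, so the slope of the cloud is no result, and MT2A lies above and SLC30A1 and MT1F below 0 on both axes.

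The genes whose pair of ratios was nearest to a member's, by Euclidean distance over the 2 ratios among 9658 other genes averaging 10 CPM or more, were CCDC71, ZDHHC16 and ZNF45 for MT2A, at distances of 0.00890 to 0.0152. For SLC30A1 they were NFIB, PHC2 and AKAP13, and for the summed MT1 members RNF216, LXN and NKIRAS2. Within a distance of 0.1 there were 152 genes for MT2A, 225 for SLC30A1 and 377 for the summed MT1 members, so 2 ratios place many genes alike.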

How the data were processed

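RNA-sequencing of 3 A549 libraries, made from 4 µg of total RNA each, was analysed from the deposited files. The authors deposited whole-number counts per gene, not normalized, and FPKM per gene, which reflect the same counts with both shRNA labels exchanged. The submitters' processing notes name Bowtie2 2.0.6, TopHat2 2.0.9, Cufflinks 2.1.1 and Cuffdiff 2.1.1; the counting program, its handling of strand and of reads shared between copies, and the read length are not given in the sources used here. All 58735 genes matched GENCODE 29 (GRCh38) in identifier, start and end.

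Counts were scaled by TMM with edgeR 4.0.16 in R 4.3.3, and log2 ratios to Control-sh used CPM with a prior count of 2. Exact 95% conditional binomial intervals (scipy 1.17.1, Python 3.11.15) and the limit of 3 counts for a count of 0 cover counting error only, as reads lacking molecular identifiers can be copies of 1 molecule. With 1 library per condition no model was fitted and no p-value computed. Library totals of 17218884, 18337471 and 17847190 counts gave, in DDX24-sh1, an interval of 0.35 to 0.50 for MT2A and of -1.38 to -0.0097 for MT1F. Percentiles and background shares were computed over 13984 genes averaging 1 CPM or more. The ratio and interval code was checked on simulated data.

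The members and gene lists were chosen with earlier results of these data known. Named were DDX24, every member, other metallothionein genes with at least 10 counts, list genes past 1.5-fold in both libraries (otherwise the 3 with the highest mean CPM) and the 3 genes nearest to MT2A, SLC30A1 and the MT1 sum. Alternatives were DESeq2 1.42.0 size factors, total counts, a prior count of 0.5, FPKM as log2(FPKM + 0.1), other filters and limits, and wider sums. Sequences were read from RefSeq and GENCODE 29. Promoters of MT1E, MT1F, MT1G and MT1M were not used here. Figures were drawn with matplotlib 3.10.9.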

Additional observations from a re-analysis of the deposited data

Results flagged for a closer look

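MT1X was the member whose ratios had opposite signs, 0.14 for DDX24-sh1 and -0.020 for DDX24-sh2 on the log2 scale. With 1 library per condition the difference was not tested, both counting intervals held 0, and the value for DDX24-sh2 was 0.0082, on the same side as the other, when libraries were scaled by total counts.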

How the results depend on the processing

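With the deposited FPKM under the labels they carry, the log2 ratios in DDX24-sh1 and DDX24-sh2 were 0.29 and 0.44 for MT2A, -0.46 and -0.29 for SLC30A1, and 0.27 and 0.42 for MT2A with the 5 MT1 members, since the labels of the shRNA libraries are exchanged there. With the labels exchanged back, all 14 member ratios kept their sign and moved by at most 0.05. All 14 also kept it under DESeq2 size factors (at most 0.01) and a prior count of 0.5 (at most 0.05), and 12 of 14 kept it under total counts, where the ratios of MT1X and MTF1 in DDX24-sh2, both near 0, turned. In both libraries, 167 genes were higher and 193 lower by 2-fold or more, against 719 and 912 without the filter, 34 and 105 among genes averaging 10 CPM, and 592 and 660 at a 1.5-fold limit. Scaling moved the median of all genes within -0.03 to 0.0029. The medians of the 6 lists kept their sign under DESeq2 size factors, total counts and without the filter. No library could be left out and no paired analysis was possible because each condition has 1 library and the labels give no replicate numbers. Depth limits MT1F, MT1X and the other MT1 genes, with at most 111 counts.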
